A study of Equus caballus with 4 samples.

Results

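The genes described here make reactive oxygen and nitrogen species or supply the enzymes that do: *NOX4*, *CYBA*, *CYBB* and *NCF1* of the NADPH oxidases, the nitric oxide synthases *NOS1*, *NOS2* and *NOS3*, and the enzymes *GCH1* and *XDH*. They were listed by symbol, and a probe belonged to the set when the gene name in the scanner files was that symbol. By that rule, 5 probes of 4 of the 9 genes were found, with 2 for *NOX4* and 1 each for *NOS3*, *GCH1* and *XDH*. The array held 43603 different probes other than controls, and those with a gene name covered 14404 genes. The other 5 genes were reached by 17 further probes under other names: *CYBA* and *CYBB* by a gene ID, *NOS2* by its older symbol INOS with 13 probes, and *NCF1* and *NOS1* by the description in the files. The results keep these probes apart from those found by symbol.

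The cells were satellite cells of the horse (ESC), stem cells of muscle that fuse into myotubes, isolated from the m. semitendinosus of young stallions and studied on day 3 of differentiation. The treated group was kept for 24 h with HMB, which the body makes from leucine, at 50 µM, with 3 mM H2O2 during the last 1 h, while the control group had the same H2O2 and no HMB. There was no group without H2O2, so every value compares HMB with no HMB in cells under oxidant. On each of 4 arrays, cRNA of treated cells labeled with Cy5 was hybridized with control cRNA labeled with Cy3. No dye was swapped and all 4 arrays lay on 1 slide, so the treatment and the dye cannot be told apart, and no second slide allowed a check for a batch. In the labels the control carries 1 replicate number throughout, whereas the methods state 4 controls, and with a single control RNA the spread between controls would be missing. The methods also state that the culture with the best viability and fusion was selected, hence the 4 arrays need not stand for 4 horses and the errors may be technical.

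NADPH oxidases pass electrons from NADPH to oxygen and release superoxide or H2O2. The product of *NOX4* is active as long as its partner p22phox, the product of *CYBA*, is present, whereas the phagocyte enzyme built on *CYBB* also needs cytosolic subunits such as p47phox, the product of *NCF1*. Nitric oxide synthases make nitric oxide from arginine and need tetrahydrobiopterin, whose synthesis starts with the enzyme encoded by *GCH1*. Xanthine dehydrogenase, encoded by *XDH*, makes uric acid in purine breakdown and can pass electrons to oxygen in its oxidase form.

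Of the 9 genes, *GCH1*, *XDH* and *CYBA* were higher in HMB-treated cells, and none was called lower. A probe was tested when 1 channel was well above background on all 4 arrays, and it was called at an adjusted p of 0.05 or less with a fold change (FC) of 1.3 or more in limma's test of the log2 ratios against 0. Of the 5 probes found by symbol, 4 were tested and 2 were called, both higher. Of these 2, the *GCH1* probe entered the test through its HMB channel alone. Over the whole array, 28.6% of 24669 tested probes were called, 12.1% higher and 16.4% lower. Of the 17 probes under other names, 7 were tested and 1 was called, also higher. Thus 11 of 22 probes entered the test. Of the 6 genes with a tested probe, 3 were called, against 27.4% of all tested genes. The probes of *CYBB*, *NOS1* and *NOS3* had no channel well above background on any array.

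**Figure D1:**
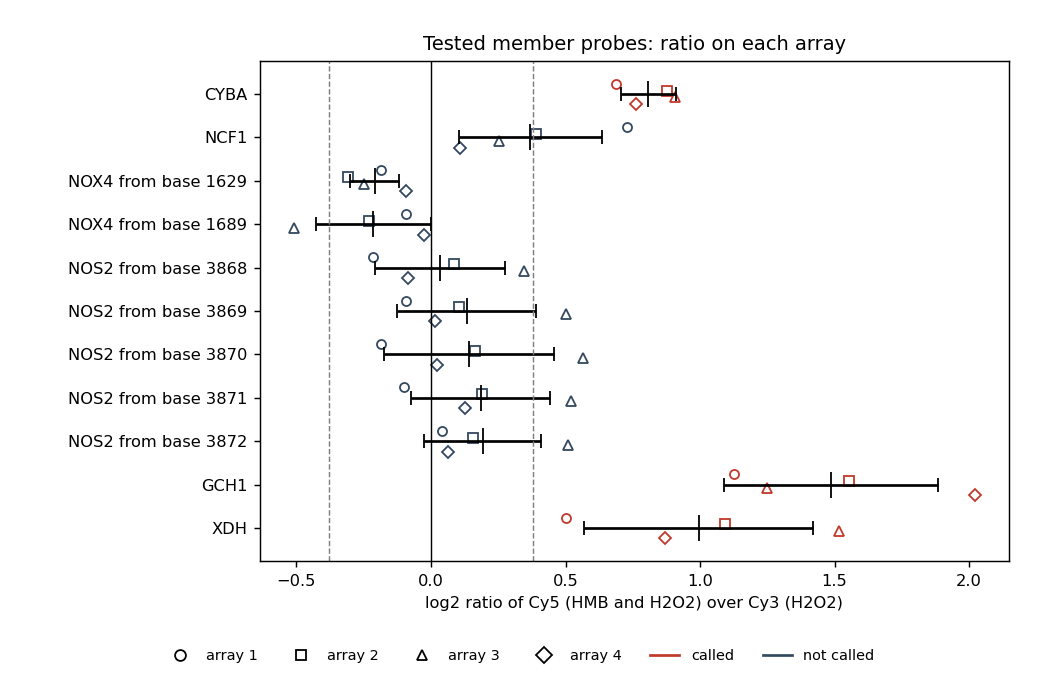
Log2 ratio of the Cy5 signal (HMB and H2O2) over the Cy3 signal (H2O2) for the 11 tested probes, with 1 symbol per array, the mean as a vertical tick and the SD as a bar (n = 4). Dashed lines mark an FC of 1.3 in each direction. The 4 arrays of *CYBA*, *GCH1* and *XDH* lie right of the upper line, both *NOX4* probes lie left of 0, and array 3 is the highest for each of the 5 *NOS2* probes.

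Among the oxidase genes, *CYBA* had the ratio with the smallest spread of the 3 called probes. Its probe, which lies on EquCab1 at chr3:62874452-62874511, gave a processed signal of 22940, 19779, 23651 and 19008 in the control channel of arrays 1 to 4. The signal in the HMB channel was 36926, 36331, 44309 and 32206. Every HMB value lay above every control value. The log2 ratios were 0.69, 0.88, 0.91 and 0.76, with a mean of 0.81 ± 0.10 (SD, n = 4), an FC of 1.75 and an adjusted p of 0.000273 in limma.

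The catalytic subunit gene *NOX4* was represented by a pair of adjacent probes, shown because together they cover 120 unbroken bases of the transcript and read the same RNA. The first lies at chr7:44805083-44805142 and the second at chr7:44805143-44805202 on EquCab1, and both are written 5′ to 3′ as in the files.
*NOX4*, from base 1629: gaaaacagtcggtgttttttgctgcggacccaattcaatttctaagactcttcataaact
*NOX4*, from base 1689: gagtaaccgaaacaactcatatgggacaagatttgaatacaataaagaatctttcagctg
The first probe had control signals of 241, 208, 301 and 251 and HMB signals of 212, 168, 253 and 235. The control signals of the second were 91.8, 78.1, 114 and 104, and its HMB signals were 86.2, 66.6, 80.3 and 102. The channels overlapped over the 4 arrays, but within each array the HMB signal was the lower for both probes. The first had a mean log2 ratio of -0.21 ± 0.09 (SD, n = 4) with an adjusted p of 0.0395 in limma, and its FC of 1.16 in the direction of the control was under the threshold. The second had -0.21 ± 0.21 (SD, n = 4), with an adjusted p of 0.103 in limma. Neither probe was called, so a small difference in *NOX4* was measured in 1 direction on all 4 arrays without meeting both thresholds.

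The phagocyte subunits were dim or not measured. Their probes are shown because each gene was read by this sequence alone, the one of *CYBB* between positions 20520297 and 20521467 of chromosome X and the one of *NCF1* between 176176571 and 176179377 of the unplaced sequence Un. Both intervals are longer than the probe, which has 60 bases.
*CYBB*: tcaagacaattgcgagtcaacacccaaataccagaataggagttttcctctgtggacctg
*NCF1*: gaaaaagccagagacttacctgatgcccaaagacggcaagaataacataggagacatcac
For *CYBB*, the ratio was 0 on all 4 arrays, and a surrogate stood in for the signal on 3 arrays in Cy3 and on 4 in Cy5, so it says nothing on the direction. The control signals of *NCF1* were 36.2, 34.9, 55.1 and 25.6, and the HMB signals were 59.97, 45.7, 65.8 and 27.6, well above background on 3 of the 4 arrays. The channels overlapped, although the HMB signal was the higher on each array. Its log2 ratios of 0.73, 0.39, 0.25 and 0.11 averaged 0.37 ± 0.27 (SD, n = 4), with an adjusted p of 0.0313 in limma. The FC of 1.29 fell just short of the threshold, and *NCF1* was not called. It was called higher with the GC correction, at 0.44, and without replicate 4, at 0.46, and lower under scaling to spike-in RNA, at -0.44.

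**Figure D2:**
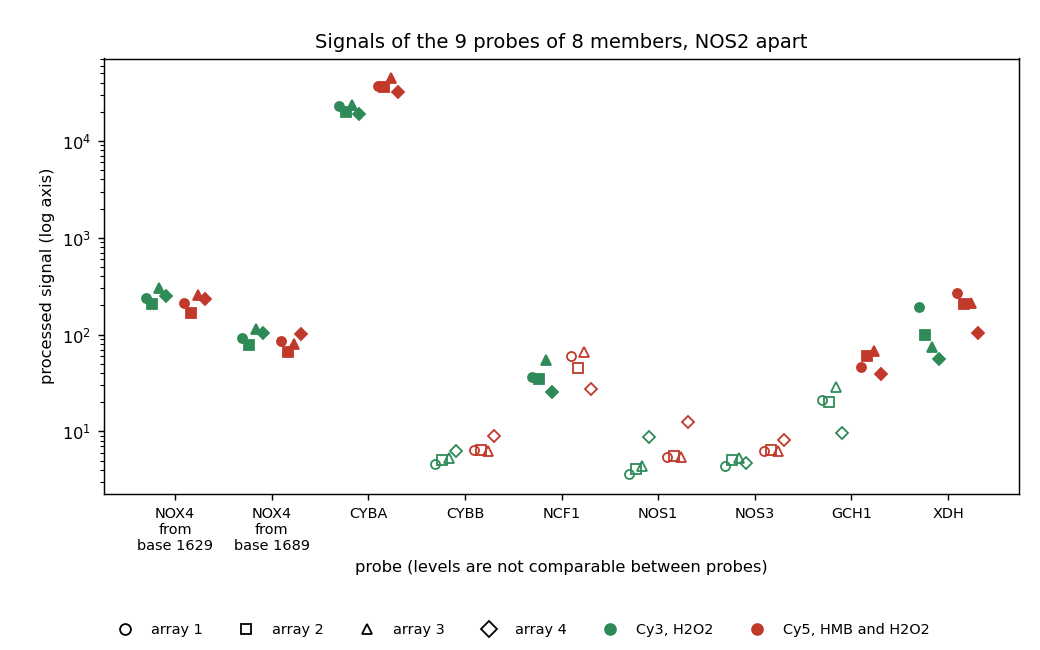
Processed signals on a log axis for the 9 probes of the 8 genes other than *NOS2*, with Cy3 (H2O2) in green and Cy5 (HMB and H2O2) in red and 1 symbol per array. Filled symbols stand for a channel that was well above background on all 4 arrays. The channels of *CYBA* do not overlap, *GCH1* is filled in Cy5 and hollow in Cy3, and *CYBB*, *NOS1* and *NOS3* are hollow in both.

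Other NADPH oxidase genes were taken from a fixed list, of which 17 are counted here, 13 had a named probe and 7 were tested. Among the 7, 2 genes were called lower and 1 higher, with a median log2 ratio of -0.07, against -0.09 over all tested genes, of which 27.4% were called (10.2% higher and 17.2% lower). The dual oxidase gene *DUOX1* had -0.91 ± 0.36 (SD over 4 arrays, as below; adjusted p = 0.00267, limma), and *DUOXA2*, which encodes a maturation factor for dual oxidases, had -0.75 ± 0.19 (adjusted p = 0.00108, limma), with 4 of its 5 probes called. *DUOX1* entered the test through its control channel, as its HMB channel was well above background on 1 array of 4. The filter thus favoured a fall, so its call is no independent support for one, and the size is uncertain. The gene called higher was *SH3PXD2B*, which encodes an adaptor protein, at 0.55 ± 0.28 (adjusted p = 0.00909, limma), and its ratio turned to -0.28 under scaling to spike-in RNA. It entered the test through its HMB channel, as its control channel was well above background on 3 arrays. *DUOX1*, *DUOXA2* and *SH3PXD2B* lost their call with normexp and loess and with no background correction and loess, where they had -0.24, -0.35 and 0.18. *SH3PXD2B* was also not called with no filter on dim probes, the methods' t-test or limma's treat. The GTPase genes *RAC1* and *RAC2* had 0.21 (adjusted p = 0.0372, limma) and 0.26 (adjusted p = 0.0239, limma). Both were higher on all 4 arrays, but their FC was under the threshold and neither was called. No channel of *NOX3*, *NOX5*, *DUOX2*, *NOXO1* or *NCF4* was well above background on any array.

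Markers of phagocytes, the cells in which *CYBB* is best known, were partly measured. Of 9 on the array, *CD14*, *CD68* and *FCER1G* were well above background in both channels on all 4 arrays, and *ITGAM*, *AIF1*, *TYROBP* and *LAPTM5* had no channel well above background on any array. Of the 3 tested, *CD68* was higher (0.88) and *FCER1G* lower (-0.50), and *CD14* was not called. The summed signal of the 9 markers was 3764 to 4510 in the control channel and 4213 to 6268 in the HMB channel. It came mainly from the probe of *CD14* and is no measure of cell number. The part of such cells in the oxidase values was not tested.

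None of the 3 nitric oxide synthase genes was called. The probes of the neuronal gene *NOS1*, at chr8:16014912-16014971, and of the endothelial gene *NOS3*, at chr4:91693443-91693502, are shown because neither gave a signal well above background.
*NOS1*: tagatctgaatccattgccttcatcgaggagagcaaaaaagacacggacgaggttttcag
*NOS3*: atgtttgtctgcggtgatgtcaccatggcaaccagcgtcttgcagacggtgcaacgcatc
On all 4 arrays *NOS3* had a ratio of 0, with a surrogate for the signal in both channels. For *NOS1* the ratio was 0 on 3 arrays and 0.51 on array 4, where the signals were 8.82 in Cy3 and 12.6 in Cy5 and again not well above background. Endothelial markers gave no tested probe either: of 8 on the array, 6 had no channel well above background on any array, and the other 2, *TEK* and *TIE1*, had the HMB channel above on 1 array. A level below background on this platform does not show that a transcript was absent.

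The probes of the inducible gene *NOS2* fell into 2 sets. Of the 13, all but the one from base 414 belong to 1 transcript record, on which they start between bases 433 and 3872, and the one from base 414 counts along another record and lies between those from base 437 and base 2323 in the gene. The 8 probes up to base 2601 were at background, with control signals from 4.13 to 31.6 and HMB signals from 5.87 to 22.9. Of these, the probe from base 437 was well above background in Cy3 on 1 array, and none was in Cy5. The remaining 5, which start at bases 3868 to 3872 and overlap almost fully between positions 40682617 and 40682680 of chromosome 11, were well above background in both channels on all 4 arrays.

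The probe that starts at base 433 is shown as an example of those at background. Capitals mark the 56 bases that it shares with 4 more probes, which start at bases 434 to 437, so the 5 read the same stretch and are not independent.
*NOS2*, from base 433: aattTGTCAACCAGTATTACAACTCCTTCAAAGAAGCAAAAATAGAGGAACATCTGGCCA

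For the 5 late probes, the control signals were 75.1 to 165 and the HMB signals 78.4 to 224. The mean log2 ratio over the 5 probes was -0.11 on array 1, 0.14 on array 2, 0.49 on array 3 and 0.03 on array 4. Array 3 stood highest, and the sign was not the same on every array. Probe by probe, the means ran from 0.03 to 0.19 with adjusted p from 0.138 to 0.807 in limma, and 0 of 5 were called. The number with an unadjusted p under 0.05 was also 0, and the methods' t-test called 0. These values do not show that *NOS2* was equal in both groups. The 5 probes were called lower under scaling to spike-in RNA, at -0.46 to -0.60, where the median of all tested probes moved by -0.60. Without the filter on dim probes, the probe from base 414 was called higher at 0.45 (adjusted p = 0.0118, limma) with no channel above background on any array.

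**Figure D3:**
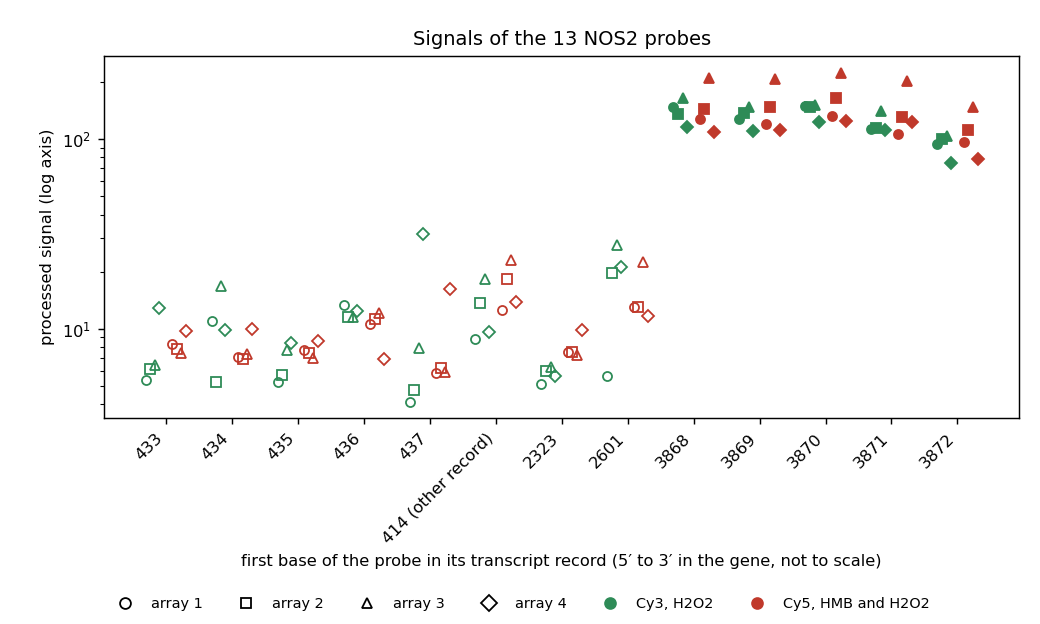
Processed signals on a log axis for the 13 *NOS2* probes, in their order along the gene and labelled by their first base in the transcript record, with Cy3 (H2O2) in green and Cy5 (HMB and H2O2) in red and 1 symbol per array. Filled symbols stand for a channel well above background on all 4 arrays. The 8 probes up to base 2601 lie at 31.6 or less and the 5 late probes at 75.1 or more, with Cy5 of array 3 the highest point of each late probe.

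The gene *GCH1*, which encodes GTP cyclohydrolase I, the rate-limiting enzyme of tetrahydrobiopterin synthesis, was higher with HMB on each array. Its only probe lies between positions 2674930 and 2675921 of chromosome 24 and is shown because this call rests on it.
*GCH1*: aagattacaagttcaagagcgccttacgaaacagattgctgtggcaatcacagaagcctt
The control signals were 21.1, 20.3, 28.7 and 9.65, none of them well above background. The HMB signals of 46.0, 59.6, 68.2 and 39.2 were well above background on each array. Every HMB value was above every control value. The log2 ratios of 1.13, 1.55, 1.25 and 2.02 averaged 1.49 ± 0.40 (SD, n = 4), with an adjusted p of 0.000562 in limma. The probe entered the test through the HMB channel alone, where it was high, so the filter favoured a rise and the p-value is no independent support for it. As the control channel was not well above background on any array, the FC can only be bounded. With the deposited processing, the bound was 2.32-fold higher with HMB, or 1.22 on the log2 scale. The bound sets the mean HMB signal against the higher of the control signal and the lowest signal well above background in that channel on each array. With normexp and loess, *GCH1* had 0.28 and an adjusted p of 0.0541 in limma and was not called, and with no background correction and loess it was called at 0.42. Both values lie below the bound, which thus holds for the deposited processing only.

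None of the other tetrahydrobiopterin genes was called. All 7 on the list were measured in both channels on all 4 arrays, and 0 were called, against 27.4% of all tested genes, with a median of -0.04. The count was also 0 with the methods' t-test, and 1 gene had an unadjusted p under 0.05. The extremes were *PCBD1*, a gene of cofactor recycling, at -0.29 ± 0.30, and *GCHFR*, which encodes the feedback regulator of the cyclohydrolase, at 0.04 ± 0.05.

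Arginine, the substrate of the synthases, and the compounds it is made from or turned into are handled by products of 11 listed genes. Of these, 8 were tested and 4 called (50%, against 27.4% of all tested genes), 2 in each direction, with a median of 0.02. The largest fall was in *ODC1*, the ornithine decarboxylase of polyamine synthesis, at -1.16 ± 0.09 (adjusted p = 5.77e-05, limma). The arginine transporter gene *SLC7A3* fell by 0.98 on the log2 scale (adjusted p = 0.00052, limma). Argininosuccinate synthase, which rebuilds arginine from citrulline, is encoded by *ASS1*, which had 0.94 ± 0.19 (adjusted p = 0.00042, limma) and was not called under scaling to spike-in RNA, at 0.33. The mitochondrial arginase gene *ARG2* had 0.43 ± 0.06 (adjusted p = 0.0023, limma) with 4 of 6 probes called, and it turned to -0.10 under scaling to spike-in RNA and lost its call with treat.

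Of the binding partners and regulators of the synthases, 6 of 11 were tested and 3 called, 2 lower and 1 higher, with a median of -0.30. The share called was 50%, against 27.4% of all tested genes. The muscle caveolin gene *CAV3* had -0.80 ± 0.10 (adjusted p = 0.00029, limma) and *CAV1*, its counterpart in many other cells, 0.56 ± 0.12 (adjusted p = 0.00137, limma), although *CAV1* was not called under scaling to spike-in RNA, at 0.01, or with limma's treat. The dynein light chain gene *DYNLL1*, whose product binds neuronal nitric oxide synthase, had -0.43 ± 0.13 and was not called in 4 of 17 alternatives: median centring (-0.27), the GC correction (-0.34), limma's treat and without replicate 3 (-0.37). Downstream of nitric oxide, 3 of 8 cyclic GMP genes were tested, and all 3 were called lower. Their median was -0.78, and 17.2% of all tested genes were called lower. Of the 3 cyclic GMP genes, *PDE2A* and *PDE5A* entered the test through the control channel. Their HMB channel was well above background on 0 and 2 arrays, so the count is no support for a fall of the group. The phosphodiesterase gene *PDE2A* was called lower (adjusted p = 0.000659, limma) and was not well above background with HMB on any array. With the deposited processing, its bound was 1.40-fold lower, and 1.25 without replicate 3. The kinase gene *PRKG1* had -0.78 ± 0.41 (adjusted p = 0.00748, limma). The call of *PDE5A* (-0.43 ± 0.37, adjusted p = 0.0422 in limma) was lost without replicate 1, 2 or 3, at -0.29, -0.38 and -0.52. Neither phosphodiesterase gene was called with normexp and loess or with no background correction and loess. Under these 2, *PDE2A* had -0.18 and -0.32, smaller in size than its bound of 0.49 on the log2 scale. *PRKG1* was not called with limma's treat, the methods' t-test or no filter on dim probes. For the receptor of nitric oxide, soluble guanylate cyclase, no probe of *GUCY1A1* or *GUCY1B1* was tested.

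The remaining member, *XDH*, was higher with HMB on each array, with the widest spread of ratios of the 3 called genes. Its probe lies at chr15:62083397-62083456 and is shown because it is the only one of the gene.
*XDH*: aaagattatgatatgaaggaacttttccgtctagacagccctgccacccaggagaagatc
The control signals were 191, 98.3, 74.3 and 56.3, and the HMB signals were 270, 209, 213 and 103, all well above background. The channels overlapped, as the control of array 1 exceeded the HMB channel of array 4, and both channels were highest on array 1 and lowest on array 4. Within arrays, the log2 ratios were 0.50, 1.09, 1.52 and 0.87, with a mean of 1.00 ± 0.42 (SD, n = 4), an FC of 1.99 and an adjusted p of 0.00336 in limma. The call was lost under scaling to spike-in RNA, at 0.34 with an adjusted p of 0.152, and with the methods' t-test.

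Genes that act next to *XDH* held the largest ratios of all lists. Of 14 genes of purine breakdown and the molybdenum cofactor, 10 had a named probe, 8 were tested and 3 called, 2 higher and 1 lower, with a median of -0.05. This is 37.5% called, against 27.4% of all tested genes. No probe was found here under the name *AOX1*, so that gene was not tested, whereas the paper lists it as higher with HMB. The counts therefore cover only the genes found by name. Guanine deaminase, which feeds xanthine to the *XDH* enzyme, is encoded by *GDA*. Its control signals were 74.7, 58.5, 61.0 and 48.9 and its HMB signals 444, 436, 608 and 323, a log2 ratio of 2.88 ± 0.32 (SD, n = 4; adjusted p = 1.85e-05, limma), and both its probes were called. The sulfurase that completes the molybdenum cofactor of xanthine dehydrogenase is encoded by *MOCOS*. For this gene the control signals were 179, 163, 237 and 204 and the HMB signals 731, 781, 1059 and 766, with a log2 ratio of 2.09 ± 0.15 (SD, n = 4; adjusted p = 9.96e-06, limma), and all 5 of its probes were called. For both genes the channels did not overlap, and both were called under each of 17 alternatives. The gene called lower was *AMPD3*, an AMP deaminase gene, at -0.43 ± 0.18 (adjusted p = 0.00816, limma), which was not called in 6 of 17 alternatives, among them normexp and loess (-0.12) and without replicate 1 (-0.34). The other genes, *ADA*, *HPRT1*, *SUOX*, *GPHN* and *NT5E*, were not called by their brightest probe, although 2 of the 5 probes of *SUOX* were, whose 5 ratios ran from -0.52 to -0.14.

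**Figure D4:**
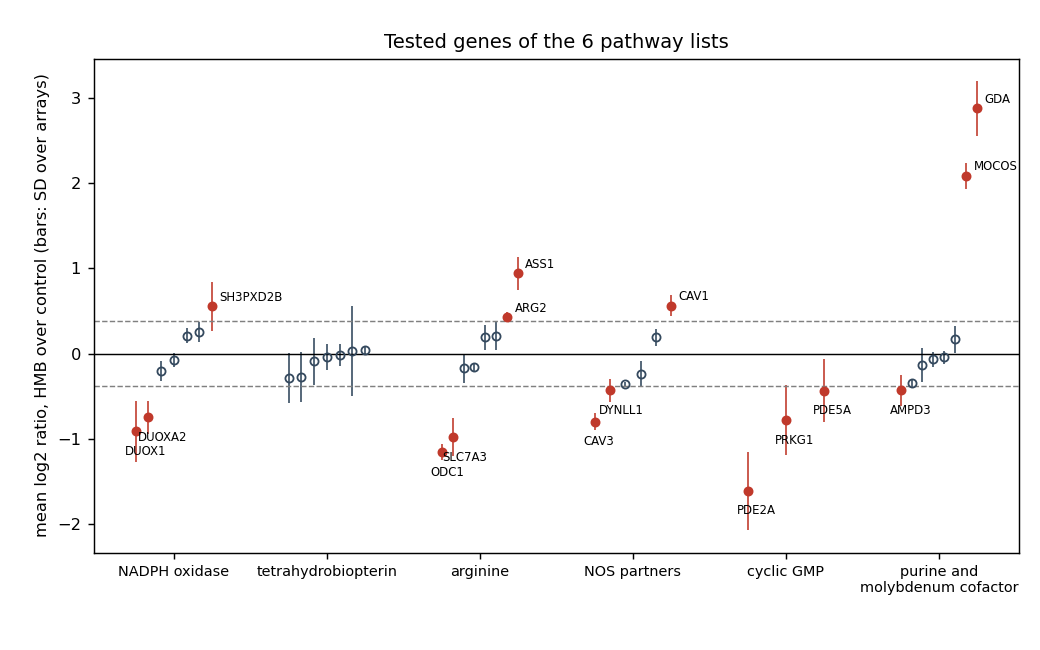
Mean log2 ratio of HMB over control for the 39 tested genes of the 6 pathway lists, each gene by its brightest tested probe, with the SD over 4 arrays as a bar. Called genes are filled and named, and dashed lines mark an FC of 1.3. The 16 called genes are 6 above 0 and 10 below, *GDA* and *MOCOS* lie highest, and no tetrahydrobiopterin gene is filled.

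Over the 6 lists, 39 of 68 genes were tested and 16 called, 6 higher and 10 lower. Among all tested genes, 27.4% were called, 10.2% higher and 17.2% lower. Of the called list genes, *DUOX1*, *PDE2A*, *PDE5A* and *SH3PXD2B* entered the test only through the channel where they were higher. With both channels required to be well above background, 12 list genes were called. The lists were small and chosen with earlier results known, hence their counts describe these genes only. In 2 sets of cell markers, muscle and fibroblast, most genes on the array were called. Of 8 muscle markers on the array, all were measured in both channels and 6 were called lower, among them *MYF5* (-1.49), *MYH3* (-1.38) and *DES* (-1.22), whereas *MYOD1* (0.32) and *MYOG* (0.03) were not called. The summed signal of the 8 muscle markers was 169656 to 191451 in control and 64754 to 102980 with HMB, mainly from *MYH3* and *ACTA1*. Such sums follow the brightest probes and are no measure of cell number. Of 5 fibroblast markers, 4 were called higher, from *LUM* (0.42) to *PDGFRA* (1.49). The brightest, *COL1A2*, was not called at -0.23 ± 0.34, and its 9 probes ran from -0.40 to -0.06. The summed signal of the 5 was 283647 to 344942 in control and 274008 to 426668 with HMB, which overlap. *COL1A2* alone had 219082 to 280814 in control. The part of the mix of cells in the values of *GCH1*, *XDH*, *CYBA* and the lists was not tested. In RNA of a whole culture, fewer cells of a type and less RNA per cell cannot be told apart.

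The 3 other named genes whose ratios lay nearest to those of *GCH1* over the 4 arrays, among 8572 genes, were *AKAP12*, *PXK* and *CBLN4*, at Euclidean distances of 0.537, 0.573 and 0.596. Their mean log2 ratios were 1.28, 1.56 and 1.32. They were picked for this likeness, and the ratios of *GCH1* rest on a control channel that was not well above background.

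The direction of the 3 called members held under every alternative that tested them, but their sizes and calls did not all hold. For *GCH1*, the held direction is no independent support for a rise, as the filter favoured one through its HMB channel. The alternatives used the same spots, and the one with no filter on dim probes used the same ratios. The ratio of *CYBA* ranged from 0.44 to 1.1 and was called under all 17 alternatives. That of *GCH1* ranged from 0.28 to 1.61 over the 16 that tested it, since its dim control channel kept it out of the test that asked for both channels. The ratio of *XDH* ranged from 0.34 to 1.16. Both *NOX4* probes stayed below 0 and were called lower only under scaling to spike-in RNA, at -0.82 and -0.93.

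**Figure D5:**
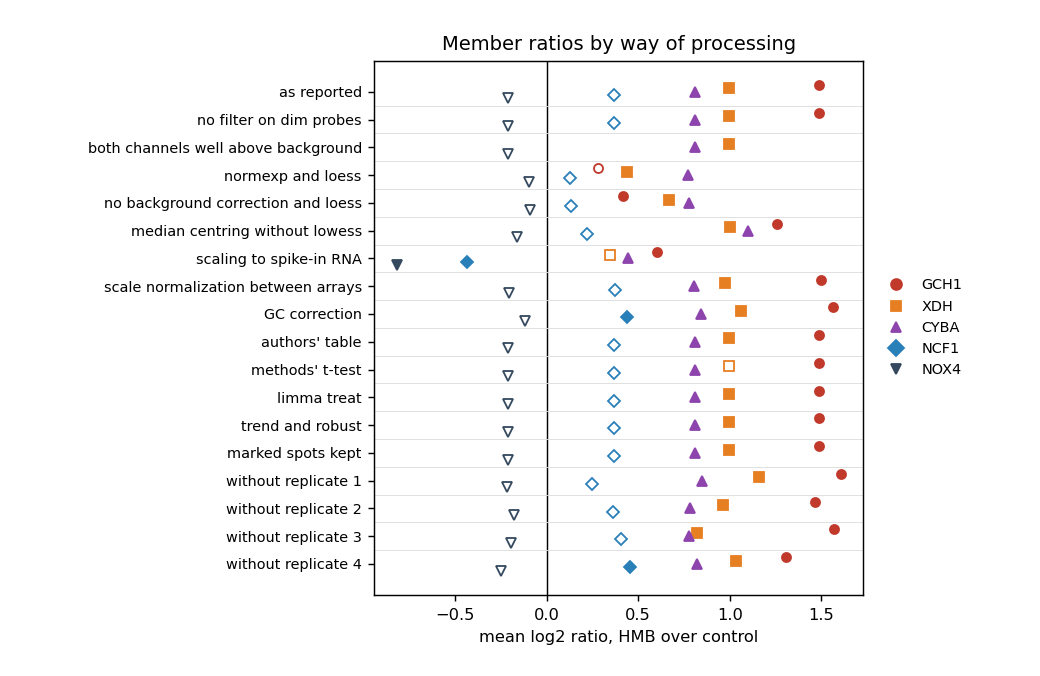
Mean log2 ratio of HMB over control for the probes of *GCH1*, *XDH*, *CYBA* and *NCF1* and the first probe of *NOX4* as reported and under 17 alternatives. Filled symbols were called. The symbols of *GCH1*, *XDH* and *CYBA* lie right of 0 in each line where they were tested. *NOX4* lies left of 0, and *NCF1* crosses 0 once, under scaling to spike-in RNA.

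Of the spots that were not controls, 57.6% to 60.6% were well above background in Cy3 and 55.2% to 61.8% in Cy5, and 0 were saturated. The log2 ratios of the tested probes correlated between arrays with Pearson's r from 0.837 to 0.920 across probes, and probes are not replicates. With 4 arrays, the precision of all values is limited by that number. Levels are compared only within a probe, as probes differ in how strongly they bind, and summed marker signals follow their brightest probes.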

How the data were processed

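Gene expression was measured with Agilent horse arrays, whose 60-base probes are annotated on EquCab1, on 4 arrays that each held both groups. The deposited scanner files give intensity values per spot and channel: raw, background-subtracted, and normalized by a linear step and lowess. Their log10 ratios, normalized Cy5 over Cy3, were written by the authors with Feature Extraction (10.10.1.1 in the file headers), and the authors' table repeats them. Multiplying the deposited ratios by the log2 of 10 gave the log2 values used here. Some signals at background, though not all, had been replaced by a surrogate, which shrinks ratios of dim probes.

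Control spots were left out, as were 13 to 35 spots per array with a mark for uneven pixels or outlying values. Of 43603 probes, 24669 passed the filter (1 channel, the same on each array, well above background, and at least 3 ratios) and were tested in R 4.3.3 with limma 3.58.1 (lmFit, eBayes, Benjamini-Hochberg over all tested probes). Columns of per-sample values that could not be mapped to a sample numbered 0. A gene was given by its brightest tested probe. Names came from the files and, by gene ID, accession or synonym, from the RefSeq annotation of assembly TB-T2T, whose coordinates were not used. Named were all members, the called genes with the largest ratios in each list, at most 4, and the 3 genes nearest to *GCH1*. A listed gene is not reported here and was left out of the counts of the lists. The bounds used the deposited processed signals with limma's Aquantile and hold for that processing only. The members, the lists and the tests were chosen with earlier results of these data known. Alternatives covered the filter, background correction (normexp with an offset of 50), normalization, scaling, GC content, the test and each replicate. The scaling to spike-in RNA and the naming of probes outside the rule were chosen after seeing the data. The test was tried on simulated data.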

Additional observations from a re-analysis of the deposited data

How the results depend on the processing

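The test was paired by array, as each ratio compares both groups within its array. There is no second group of ratios for any further pairing. The number of called probes, 7046 of 24669, was 3539 with normexp and loess, 4440 with no background correction and loess, 2822 with limma's treat and 20165 under scaling to spike-in RNA, and 6637 to 7151 without 1 replicate. The share called higher, 42.5%, was 55.0%, 60.1%, 54.6% and 4.94% under these 4, and 55.6% with the GC correction. The scaling centred ratios on the mean of 10 spike-in probe types of unstated amounts and moved the median of all tested probes by -0.60, and spike-in probes of equal amount could not be used because the files do not name them. Under it, 10 member probes in place of 3 and 31 list genes in place of 16 were called. The ratios that turned under it were *NCF1* (-0.44), the *NOS2* probes (-0.60, -0.54, -0.51, -0.46 and -0.47), *SH3PXD2B* (-0.28) and *ARG2* (-0.10). Without replicates 1 to 4 in turn, the number called was 2 each time for probes found by symbol, 3 to 4 for all member probes and 14 to 17 for list genes. Of the 2 probes found by symbol, 1 was called with both channels required (where *GCH1* was not tested), with normexp and loess, and with the methods' t-test, which gave *XDH* an adjusted p of 0.0557. List genes called numbered 9 with treat. The bound for *GCH1* was 2.20 to 2.42 without 1 replicate and that for *PDE2A* 1.25 to 1.60. Dim probes are limited by signal over background. Apart from the construction of each alternative, the cause was not tested.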
